A study of Mus musculus with 6 samples.

Results

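Cells make cholesterol from acetyl-CoA. The mevalonate arm of the pathway builds farnesyl pyrophosphate, and the sterol arm joins that unit to squalene, closes the ring and trims it to cholesterol. The transcription factor SREBP2 turns these genes on when membrane sterol is low, whereas the oxysterol receptors LXRα and LXRβ turn on export when sterol is high. Brown fat, the heat-producing fat depot, takes up lipoprotein lipid in the cold, and its adipocytes carry both branches of this control.

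The 31 genes described here were chosen by function as a list of symbols, with earlier results of these data known. All 31 were found among the 54385 entries of the deposited count table. They comprise 7 enzymes of the mevalonate arm, 11 enzymes of the sterol arm, 4 genes of SREBP2 control, 5 genes of uptake, transport and esterification, and 4 genes of LXR signalling and efflux. PolyA RNA was sequenced from interscapular brown fat of C57BL/6N mice that had eaten chow for 20 weeks and were kept at 5 °C for the last 24 hours. The 3 control libraries are labelled Adcy3-FL/FL with Adipoq-wt/wt, and the 3 knockout libraries Adcy3-FL/FL with Adipoq-wt/cre, so floxed Adcy3 and cold were common to both groups. Adipoq-Cre acts in adipocytes, and the other cells of the depot keep the gene. The series' design text speaks of inguinal tissue, an age of 20 weeks and quadruplicates and is silent on cold, and the sample labels were followed instead. No unexposed mice are among these samples, so the values describe cold-exposed tissue only.

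Libraries held 13956786 to 17538044 estimated counts, of which the 31 genes took between 0.219% and 0.251%. Adcy3, the membrane adenylyl cyclase that was deleted, stood at 134, 169 and 158 CPM (counts per 1000000, TMM-scaled) in controls 1 to 3 and at 21.9, 30.3 and 24.0 CPM in knockouts 1 to 3 (log2 fold change -2.60 ± 0.17, SE; edgeR adjusted p = 0.00146). Ucp1 and Cidea, defining genes of brown adipocytes, were abundant in every library (Ucp1 between 5389 and 7579 CPM). On the first principal component of log2 CPM (58.3% of the variance) the controls lay between -43.8 and -34.8, knockout 1 near them at -20.7, and knockouts 2 and 3 far off at 54.0 and 80.9. On the second (16.5%) knockout library 1 stood apart from the other 5. Skeletal muscle transcripts also differed, as 18 markers made up 1.46% to 1.87% of counts in controls and 0.793%, 0.0605% and 0.00363% in knockouts 1 to 3. Values without knockout library 1 are given below for a number of genes.

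The promoters of Hmgcs1 and Insig1, the most abundant targets of SREBP2 in the list by control CPM, are shown because they hold the letters this control is known for. SREBP2 binds sterol regulatory elements, here searched as TCACNCCAC, and also E-boxes of the form CACGTG, while CCAAT boxes bind the partner NF-Y. Capitals mark matches on either strand (ATTGG is CCAAT read on the other strand), and no marked matches overlap. Sequences are RefSeq promoter windows on GRCm38.p6, plus strand, from chr13:119690151-119690350 for Hmgcs1 and chr5:28071163-28071362 for Insig1, and each ends before the annotated transcript starts.
Hmgcs1: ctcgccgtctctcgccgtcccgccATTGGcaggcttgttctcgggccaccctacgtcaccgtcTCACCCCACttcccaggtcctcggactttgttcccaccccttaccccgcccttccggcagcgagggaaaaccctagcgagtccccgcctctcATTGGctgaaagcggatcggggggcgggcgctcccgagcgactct
Insig1: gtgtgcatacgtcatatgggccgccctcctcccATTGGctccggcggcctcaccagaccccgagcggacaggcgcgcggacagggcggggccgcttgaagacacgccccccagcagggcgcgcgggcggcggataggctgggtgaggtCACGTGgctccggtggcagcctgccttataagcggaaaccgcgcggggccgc

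The Hmgcs1 stretch has a sterol element match that begins at -137 from the RefSeq start, between CCAAT letters at -176 and -45. Insig1 has an E-box at -101 and a CCAAT box at -216, with no match to the sterol element letters. RefSeq windows of 300 bases (250 before and 50 after the start) were found for 25 of the 31 genes. CCAAT letters were in windows of 20 of these 25 genes (80.0%), against 41.1% of the 27025 genes in that table. E-box letters were in 6 of 25 (24.0%, against 8.09%), in Abca1, Dhcr7, Hsd17b7, Insig1, Sc5d and Scap. The sterol element letters were in 1 of 25, Hmgcs1, against 1.44% of the genes in the table. A match describes the letters and is not a measured binding site.

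Levels between genes were compared in control CPM per kilobase of each gene's longest coding transcript. Insig1, whose protein holds the SREBP2 escort SCAP in the endoplasmic reticulum, was the highest at 132 ± 12.6 CPM per kilobase (SD, n = 3). It was followed by Acat2, the cytosolic thiolase that starts the pathway, at 97.9 ± 6.10, and by Hmgcs1, the cytosolic HMG-CoA synthase, at 84.2 ± 11.3. The bands of mean ± SD overlapped for Acat2 and Hmgcs1, but within every library, control and knockout, Acat2 was above Hmgcs1 per kilobase. Fdps, which makes farnesyl pyrophosphate, stood at 70.4 ± 2.90 and Npc2, the soluble lysosomal carrier of cholesterol, at 63.2 ± 0.66 CPM per kilobase. The bands of Hmgcs1 and Fdps overlapped too. Hmgcs1 was above Fdps in every control but below it in knockouts 1 and 3, and by knockout mean Fdps ranked 3 and Hmgcs1 4. The lowest were Abcg1, an exporter, at 2.82 ± 0.78, Stard4, a cytosolic sterol carrier, at 1.63 ± 0.20, and Soat1, which esterifies cholesterol for storage, at 0.27 ± 0.08. With the union of all exons as the length, Insig1, Acat2 and Hmgcs1 kept ranks 1 to 3 and Soat1 rank 31, while Lss moved from rank 12 to 22 and Fdps from 4 to 8.

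Within the 18 synthesis enzymes, message was concentrated early in the pathway. Acat2 and Hmgcs1 together held 37.8% to 39.1% of the enzymes' summed CPM per kilobase in the controls, and 33.1%, 39.2% and 37.7% in knockouts 1 to 3. Knockout 1 was below every other library in this share, and Fdps was above in it (19.2% against 14.5% to 15.9% elsewhere). Of the sterol arm, Sc5d, a desaturase, held the most, with 6.31% ± 0.44 of the sum among controls against 6.24% ± 0.68 among knockouts (SD, n = 3 each). Sqle, the squalene monooxygenase, held 2.34% ± 0.32 and 2.51% ± 0.36. Insig1 exceeded its relative Insig2, which performs the same retention, by 12.0 ± 1.80 times per kilobase in controls and 12.7 ± 2.55 times in knockouts. Nr1h3 (LXRα) exceeded Nr1h2 (LXRβ) by 1.30 ± 0.15 and 1.29 ± 0.07 times per kilobase. Groups overlapped in both ratios.

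**Figure D1:**
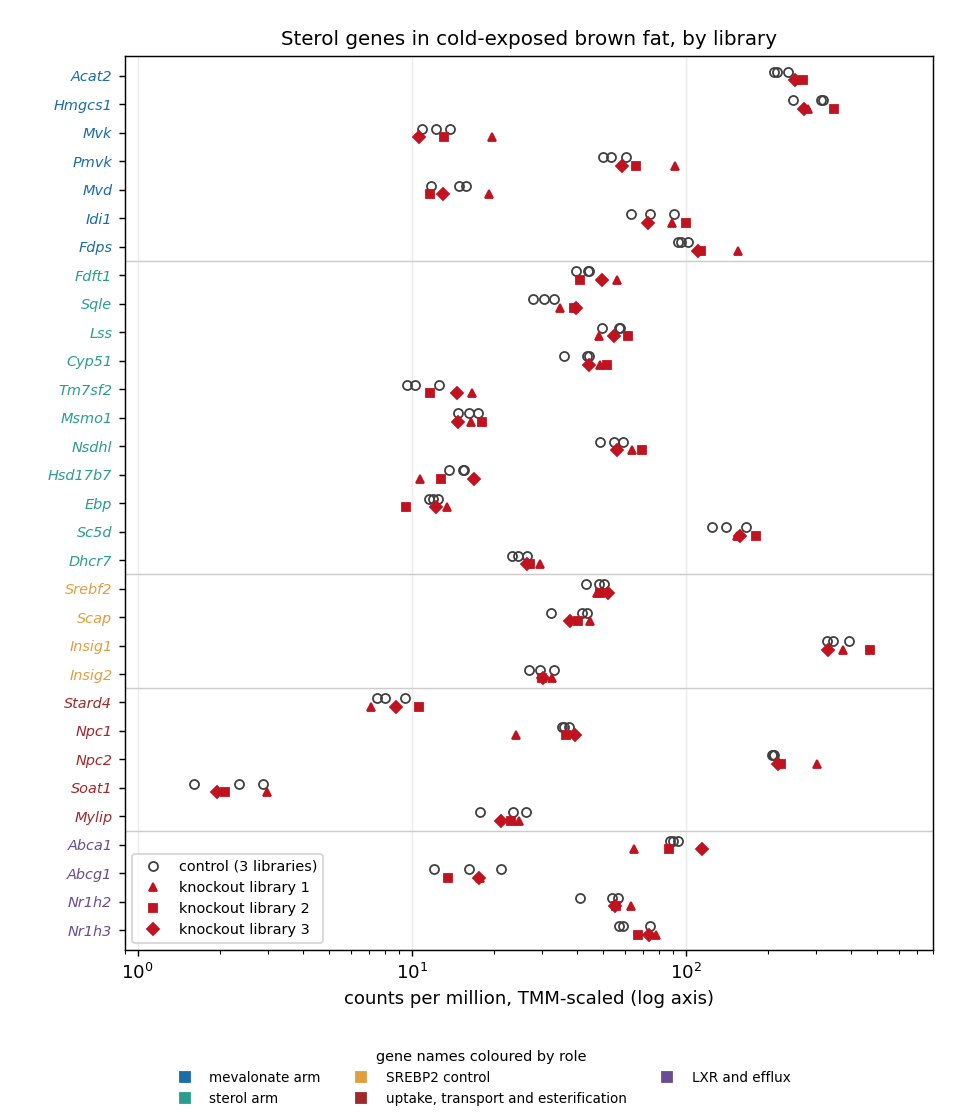
CPM of the 31 genes in each library on a log axis, with open circles for the 3 controls and filled symbols for knockout libraries 1 to 3, ordered by role. Levels run from Soat1 (2.28 CPM control mean) to Insig1 (355 CPM), and knockout and control symbols lie side by side for most genes, with knockout 1 outermost for Pmvk, Fdps, Npc2 and Npc1.

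No gene of the list passed the genotype test. By edgeR's quasi-likelihood F test, adjusted by Benjamini-Hochberg over the 14767 genes tested, 0 of the 31 had an adjusted p under 0.05, where 0.0609% of all genes did, and the smallest among them was 0.437 (Sqle). At an unadjusted p under 0.05 there were 2 of 31 (6.45%), Sqle and Fdps, against 10.5% of all genes. DESeq2's Wald test also called 0 of 31, where it called 1.53% of all genes, and gave 3 (9.68%) an unadjusted p under 0.05, Fdps, Pmvk and Sqle, against 8.34% of all genes. In bulk tissue a lower value can mean fewer cells of a type or less RNA per cell, and these cannot be told apart.

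The intervals show how large a difference these 6 libraries leave room for. For all 31 genes the 95% interval of the log2 fold change lay within a change of 2-fold in either direction. It lay within 1.5-fold for 23 of 31, against 38.0% of all genes tested, a share that is not matched for expression level. The 8 exceptions were Fdps, Pmvk, Mvk, Idi1, Sqle, Tm7sf2, Npc2 and Soat1. The interval held 0 for 29 genes, and Sqle and Fdps were the exceptions, both above it.

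**Figure D2:**
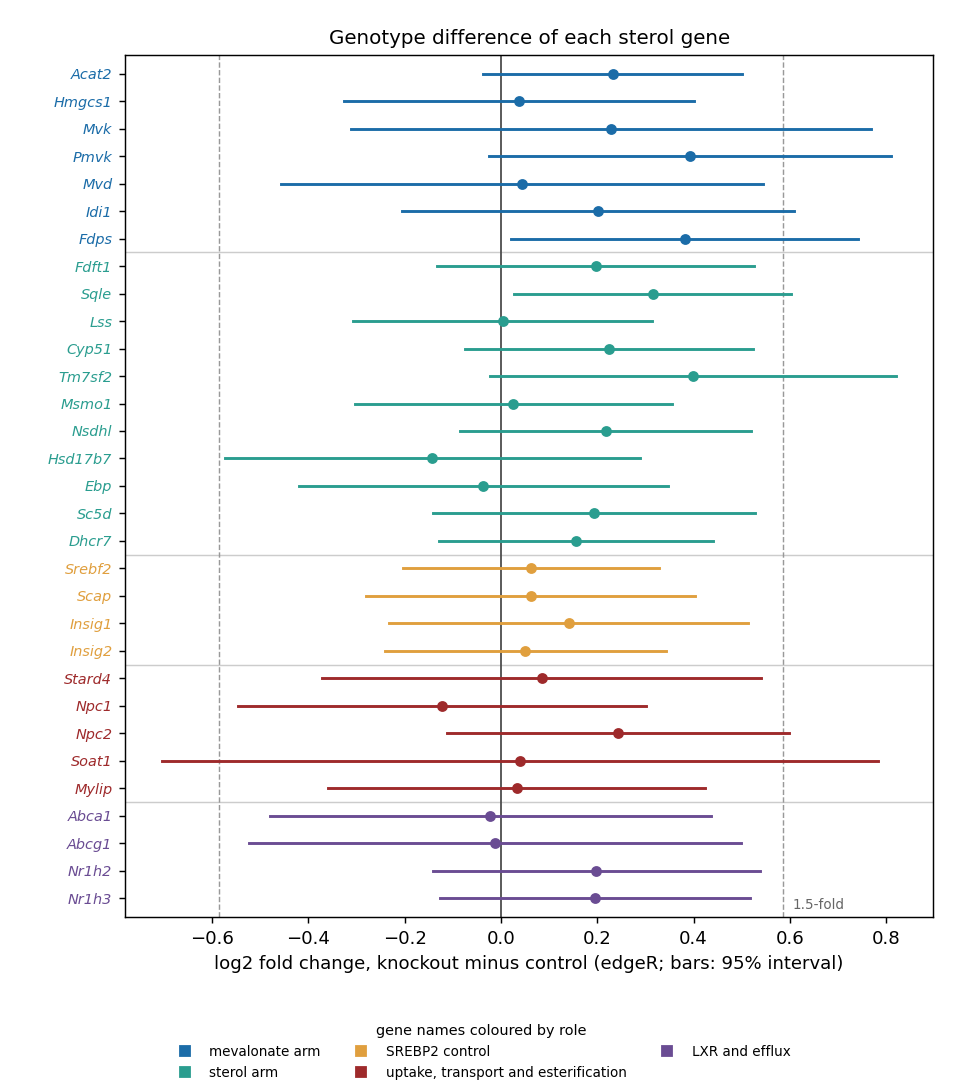
Fitted log2 fold change of each gene, knockout minus control, with its 95% interval from edgeR and dashed lines at a change of 1.5-fold. Points of the 2 enzyme arms lie mostly to the right of 0, between -0.14 and 0.40, while 29 of the 31 intervals cross 0.

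The enzymes lay mostly on the positive side without passing. Of the 18 synthesis enzymes, 16 had a positive log2 fold change, with a median of 0.20, where 51.7% of all genes were positive and the median was 0.01. By library, the enzymes' median of log2 CPM minus the control mean was 0.09, 0.04 and -0.11 in controls 1 to 3. In knockouts 1 to 3 it was 0.24, 0.21 and 0.10, so knockout 3 was close to control 1. Genes measured in the same libraries are not independent replicates, so the 16 signs are not separate results. The other 13 genes had 10 positive values and a median of 0.06. The highest of the 6 libraries was a knockout for all 18 enzymes and for 10 of the other 13 genes, against 58.1% of all genes tested. Without knockout library 1, 14 of the 18 enzymes were positive and their median was 0.15. Leaving out control library 3 lowered the enzyme median to 0.11, with 12 of 18 positive.

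Brown adipocyte markers had the same sign. All 10 had positive log2 fold changes (median 0.27), and their summed level was 13222 to 13689 CPM in controls and 15495 to 17574 CPM in knockouts. The 18 muscle markers were all negative (median -2.28). In 17 of them every knockout lay below every control, against 10.8% of all genes tested. Of the 11 tested macrophage markers 10 were negative (median -0.37), and all 8 fibroblast markers were negative (median -0.71). Summed macrophage markers were 98.2 to 185 CPM in controls and 76.8 to 163 CPM in knockouts, and summed fibroblast markers 524 to 784 and 297 to 495 CPM. White adipocyte markers were negative in 7 of 7 tested (median -0.72), and endothelial markers positive in 7 of 8 (median 0.10). No listed marker was at 0 in all libraries. In edgeR 0 markers of these 6 lists passed after adjustment, where 0.0609% of all genes did. At an unadjusted p under 0.05 were 3 of 10 brown adipocyte, 3 of 11 macrophage and 3 of 18 muscle markers. The counts were 7 of 8 for fibroblast, 5 of 7 for white adipocyte and 0 of 8 for endothelial markers, against 10.5% of all genes. DESeq2 called 3 fibroblast, 1 macrophage and 2 white adipocyte markers, where it called 1.53% of all genes. The part of cell makeup in the sterol genes' values was not tested.

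**Figure D3:**
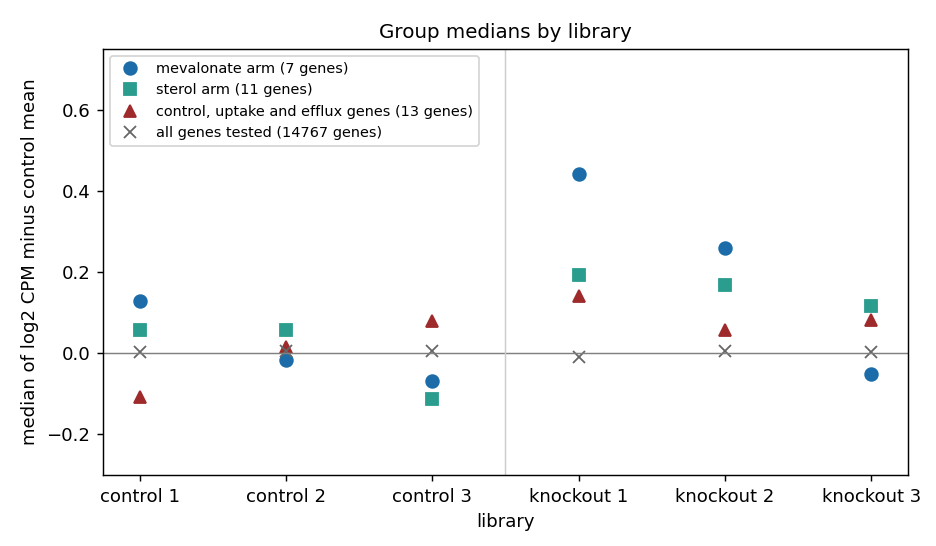
Median over each gene group of log2 CPM minus the mean of the 3 controls, for each library on the horizontal axis. The mevalonate arm lies at 0.44, 0.26 and -0.05 in knockouts 1 to 3 and the sterol arm at 0.19, 0.17 and 0.12, while the median of all genes tested stays within 0.01 of 0. In controls 1 to 3 the mevalonate arm lies at 0.13, -0.02 and -0.07 and the sterol arm at 0.06, 0.06 and -0.11.

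In the mevalonate arm, all 7 genes had positive log2 fold changes (median 0.23). Fdps (chromosome 3, 89093588 to 89101959, minus strand) stood at 102, 96.1 and 94.0 CPM in controls 1 to 3 and at 156, 114 and 111 CPM in knockouts 1 to 3. Every knockout was above every control, and knockout 1 was far above the rest. Its log2 fold change was 0.38 ± 0.16 (SE, edgeR adjusted p = 0.450), and 0.21 without knockout 1. Acat2 (chromosome 17, 12942890 to 12960747, minus strand) stood at 236, 215 and 210 CPM in controls and at 256, 269 and 251 CPM in knockouts. Here too the groups did not overlap, and the 3 knockouts lay close together. The log2 fold change was 0.23 ± 0.12 (SE, edgeR adjusted p = 0.542), and 0.24 without knockout 1.

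Pmvk, phosphomevalonate kinase, read 60.7, 50.04 and 53.4 CPM in controls and 91.3, 65.7 and 58.5 CPM in knockouts. Knockout 3 lay within the controls and knockout 1 was the highest, and the log2 fold change went from 0.39 ± 0.18 (SE) to 0.18 without knockout 1. Mvk, the kinase before it, read 10.9, 13.8 and 12.2 CPM in controls and 19.6, 13.1 and 10.6 CPM in knockouts. Only knockout 1 was above the controls, and the value turned from 0.23 to -0.05 without it. Mvd, the decarboxylase that follows, had the same form, with 19.1 CPM in knockout 1, 11.7 and 13.04 CPM in the other 2, and a value of 0.04 that became -0.20 without knockout 1.

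Hmgcs1 (chromosome 13, 119690379 to 119708260, plus strand) stood at 317, 311 and 247 CPM in controls and at 280, 347 and 271 CPM in knockouts. The groups were interleaved, and the log2 fold change of 0.04 ± 0.16 (SE) had a 95% interval of -0.32 to 0.40. Idi1, the isomerase that makes the allylic building block, read 90.8, 74.1 and 63.4 CPM in controls and 89.0, 101 and 72.7 CPM in knockouts, which also overlap. Both genes had their highest value in knockout 2 and their lowest in control 3.

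In the sterol arm, 9 of 11 genes had positive log2 fold changes (median 0.19). Sqle (chromosome 15, 59315077 to 59331192, plus strand) stood at 27.6, 33.0 and 30.5 CPM in controls and at 34.7, 39.1 and 39.7 CPM in knockouts. All knockouts were above all controls, and knockout 1 was the nearest to them. Its log2 fold change was 0.31 ± 0.12 (SE), with a 95% interval of 0.03 to 0.60. Without knockout 1 it was 0.37, at an adjusted p of 0.122 in edgeR, the smallest that any of the 31 genes reached in any alternative. Cyp51, the lanosterol demethylase, read 44.3, 43.5 and 35.9 CPM in controls and 48.5, 51.5 and 44.5 CPM in knockouts. The groups were separated by less than 1 CPM (0.22 ± 0.13, SE; edgeR adjusted p = 0.597).

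Groups that did not overlap, with knockouts higher, were found for 5 of the 31 genes (16.1%), against 7.63% of all genes tested. These were Acat2, Fdps, Sqle, Cyp51 and Npc2. No gene of the list had all knockouts below all controls, against 10.8% of all genes tested.

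Tm7sf2, a sterol reductase, had the highest fold change of the list at 0.40 ± 0.18 (SE, edgeR adjusted p = 0.502), with 9.64, 12.6 and 10.3 CPM in controls and 16.6, 11.7 and 14.6 CPM in knockouts. Knockout 2 lay within the controls. Nsdhl, a dehydrogenase that removes sterol methyl groups (0.22 ± 0.13), Fdft1, squalene synthase (0.20 ± 0.14), Sc5d (0.19 ± 0.14) and Dhcr7, the last reductase (0.16 ± 0.12, all SE), were positive with overlapping groups. Fdft1 was at 0.09 without knockout 1, and Nsdhl and Sc5d were at 0.12 and 0.07 without control 3. Msmo1, which oxidises methyl groups, and Lss, which closes the ring to lanosterol, were at 0.03 and 0.00. Ebp, an isomerase, was at -0.04 and Hsd17b7, a ketoreductase, at -0.14 ± 0.19 (SE). Hsd17b7 read 15.3, 15.6 and 13.7 CPM in controls and 10.7, 12.8 and 16.9 CPM in knockouts, and its log2 fold change without knockout 1 was -0.0026.

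The genes that set SREBP2 activity lay near 0 (median 0.06). Srebf2, which encodes SREBP2, stood at 43.3, 48.3 and 50.5 CPM in controls and at 47.6, 48.6 and 52.2 CPM in knockouts. The groups overlapped, and the log2 fold change of 0.06 ± 0.11 (SE) had a 95% interval of -0.20 to 0.33. Scap, its escort to the Golgi, was at 0.06 ± 0.15, and Insig2 at 0.05 ± 0.13 (both SE). Insig1 (chromosome 5, 28071363 to 28078662, plus strand) read 329, 394 and 344 CPM in controls and 376, 469 and 330 CPM in knockouts. Knockout 2 was the highest and knockout 3 was level with the lowest control, for a log2 fold change of 0.14 ± 0.16 (SE). For all 4 genes the difference was smaller than 1 SE, and each turned negative in at least 1 of the 11 alternatives.

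Among uptake, transport and storage genes, Npc2 and Npc1 parted in knockout library 1. These lysosomal proteins hand cholesterol from the lumen to the membrane. Npc2 (chromosome 12, 84754562 to 84773152, minus strand) stood at 209, 211 and 206 CPM in controls and at 301, 222 and 217 CPM in knockouts. All knockouts were above the controls, whose coefficient of variation was 1.04%. Npc1 read 35.5, 37.4 and 36.1 CPM in controls and 24.1, 36.6 and 39.4 CPM in knockouts, so that knockout 1 alone lay below the controls. The ratio of Npc2 to Npc1 per kilobase was 9.32, 8.92 and 9.06 in controls and 19.8, 9.62 and 8.74 in knockouts. Without knockout 1 the log2 fold change of Npc2 went from 0.24 to 0.08 and that of Npc1 from -0.12 to 0.07. Stard4 (0.08 ± 0.20), Mylip, the ligase that degrades lipoprotein receptors (0.03 ± 0.17), and Soat1 (0.04 ± 0.32, all SE) had overlapping groups, and without knockout 1 they were at 0.22, -0.02 and -0.17. Soat1 stood between 1.601 and 2.97 CPM in all 6 libraries, where 3 counts are worth 0.172 to 0.203 CPM.

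Of the 4 LXR and efflux genes, both receptors had positive values and both exporters lay near 0. Nr1h3 read 57.3, 59.3 and 74.3 CPM in controls and 78.2, 66.8 and 73.6 CPM in knockouts (0.20 ± 0.14, SE), and Nr1h2 was at 0.20 ± 0.15 (SE). Control 3 reached into the knockouts in both, and without control 1 Nr1h3 was at 0.11 and Nr1h2 at 0.06. Abca1, the LXR target that loads cholesterol on apolipoprotein, read 94.0, 89.6 and 87.5 CPM in controls and 64.7, 87.3 and 115 CPM in knockouts. Its knockouts lay on both sides of a narrow control range (coefficient of variation 28.3% against 3.66%), and the log2 fold change of -0.02 became 0.16 without knockout 1. Abcg1 read 12.1, 16.2 and 21.1 CPM in controls and 17.7, 13.6 and 17.6 CPM in knockouts, with a difference of -0.01 ± 0.22 (SE).

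Deviations in knockout library 1 followed transcript length. Across the 31 genes, the rank correlation of log2 CPM minus the control mean with the length of the longest coding transcript was -0.64 in knockout 1, -0.20 in knockout 2 and 0.05 in knockout 3. In the controls it was between -0.10 and 0.09. Over 14754 genes with a length it was -0.49, 0.12 and -0.08 in knockouts 1 to 3. These are descriptions across genes of single libraries, and genes are not independent replicates. Pmvk (1194 bases, 0.74), Fdps (1382 bases, 0.68), Mvk (1660 bases, 0.67) and Tm7sf2 (1498 bases, 0.62) were the most raised in knockout 1, and Npc1 (5224 bases, -0.59), Abca1 (10262 bases, -0.48) and Hsd17b7 (4612 bases, -0.46) the most lowered. Soat1 (8371 bases, 0.40) went the other way at a low level. The part of length in the genotype values was not tested beyond leaving this library out.

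**Figure D4:**
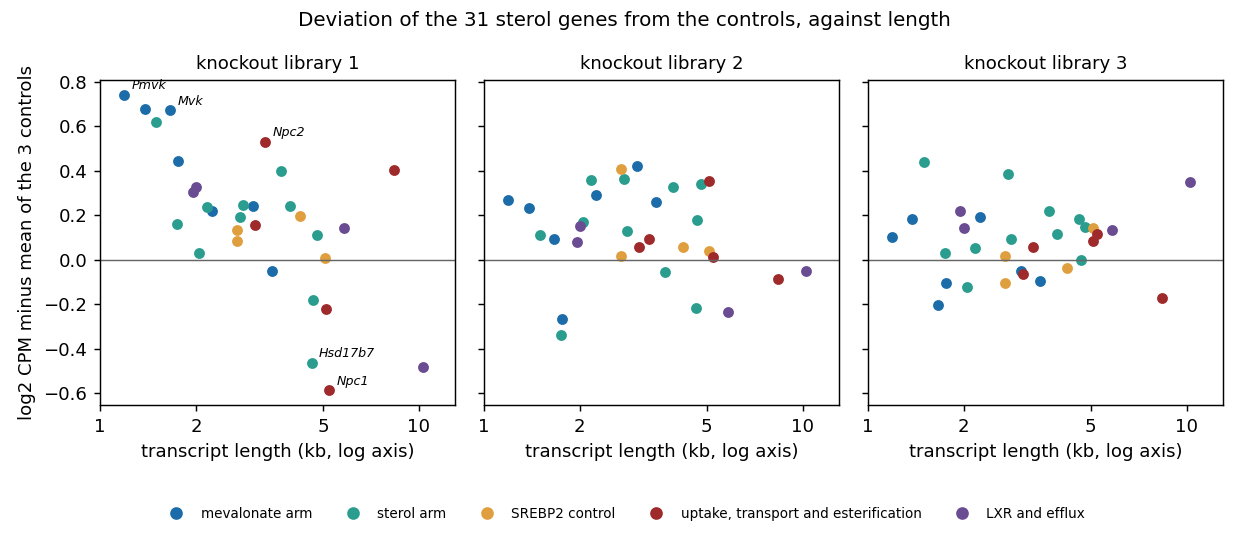
Log2 CPM minus the control mean of each of the 31 genes against the length of its longest coding transcript (log axis), 1 panel for each knockout library, coloured by role. In knockout 1 short transcripts lie up to 0.74 above the controls and long ones down to -0.59, while knockouts 2 and 3 show little slope (rank correlations -0.20 and 0.05).

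Some entries share sequence with another gene, and their counts are uncertain to that extent. Acat2 matches its near copy Acat3 at 97.7% identity over 1477 bases, and the Acat3 level was 1.604 ± 0.90 CPM among controls against 1.01 ± 0.36 among knockouts (SD, n = 3 each). It also matches Tcp1, a chaperonin subunit gene, at 98.7% over 445 bases, and Tcp1 had a mean of 121 ± 5.77 CPM among controls against 132 ± 3.13 among knockouts. Fdft1 shares 774 exon bases (18.3% of its exons) with Ctsb on the opposite strand, a lysosomal protease gene with a mean of 1146 ± 94.9 CPM among controls against 1387 ± 83.8 among knockouts. No source used here says whether counting used strand, so reads of that stretch cannot be told apart. Tm7sf2 shares 12.1% of its exon bases with Vps51 on the same strand. Vps51 had a mean of 24.3 ± 3.04 CPM among controls against 28.7 ± 3.71 among knockouts (log2 fold change 0.24), the same direction as Tm7sf2. Fdps has 4 near-identical entries elsewhere and 1 that overlaps it, with 0 to 3 counts each in all libraries together.

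Beyond the 31 genes, 6 lists of neighbouring pathway genes held 66 tested genes of 73 listed, and 0 of them passed (edgeR, adjusted over all genes), with 7 (10.6%) at an unadjusted p under 0.05, close to the share of all genes. DESeq2 called 0 of them too. In the isoprenoid and coenzyme Q branch, 11 of 13 genes were positive (median 0.13), and the smallest p belonged to Rabggtb, a subunit of the enzyme that prenylates Rab proteins (0.30 ± 0.12, SE; edgeR adjusted p = 0.434). In SREBP processing and sterol control of the endoplasmic reticulum, 8 of 9 were positive (median 0.05). Other sterol enzymes and partners had 6 of 10 positive (median 0.10).

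Lipoprotein uptake and lysosomal release had 6 of 10 tested genes positive, and Lrpap1, a chaperone of lipoprotein receptors, had the smallest p (-0.43 ± 0.14, SE; edgeR adjusted p = 0.350). Intracellular sterol transport had 7 of 13 positive, led by Gramd1a, a carrier from the plasma membrane (-0.36 ± 0.14, SE; edgeR adjusted p = 0.437). Sterol ester, oxysterol and efflux partners had 6 of 11 positive (median 0.02). Lrpap1 and Gramd1a were both lower in every knockout than in every control, as were 10.8% of all genes tested. Rabggtb was higher in every knockout, as were 7.63% of all genes tested. These genes were named for the smallest p of their lists, so their separated groups are not further support.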

How the data were processed

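The authors deposited estimated counts for each gene, not normalized and partly fractional, as the file's own values show. The submitters' processing notes name StringTie, Salmon, edgeR and the build GRCm38; for versions, settings, annotation release and strand use, nothing was found in the labels or headers. Columns were matched to samples by description. Symbols, positions and lengths came from GENCODE vM21 (GRCm38), where 54131 identifiers had a symbol and 254 did not.

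Counts were rounded, genes passing filterByExpr (minimum count 10, minimum total 15) were fitted with the edgeR 4.0.16 quasi-likelihood F test in R 4.3.3 (genotype only, TMM, two-sided, Benjamini-Hochberg adjusted p under 0.05). CPM divide counts by library size times TMM factor, per 1000000. Deviations used log2 CPM with a prior count of 2. Standard errors are the log2 fold change over the root of F, and 95% intervals use the fit's degrees of freedom. The fit was tested on simulated data. The outcome is not reported here, and a gene that was not called is not shown to be unchanged. Alternatives were DESeq2 1.42.0, RLE factors, no filter, the replicate block, another scaling set and each library left out. Near-identical transcripts were found with blastn 2.17.0 (at least 95% identity over 200 bases). Chi-square tests between libraries of each group found none that was a copy of another. The labels call them replicates without naming animals, so p-values reflect the scatter of these libraries, which may be technical. Count floors cover counting error only.

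The members and lists were chosen with earlier results of these data known. Named were all 31 genes, Adcy3, the first 2 genes of marker lists where a result turns on them, from each wider list the gene with the smallest p (for 3 of these 6 lists it is not reported here), and genes that share sequence with a member. Of the wider lists, 1 of 73 symbols was not matched. The length by union of exons was added after seeing the data.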

Additional observations from a re-analysis of the deposited data

How the results depend on the processing

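None of the 31 genes was called in any of the 11 alternatives, and the smallest adjusted p was 0.122 (Sqle, without knockout library 1, edgeR). Over all genes the count of calls did depend on the choice: 9 as reported, 289 with DESeq2 (31 higher, 258 lower), 893 with no low-count filter (111 higher, 782 lower), and 4 to 857 when a library was left out, the highest without knockout library 1. The enzyme median of 0.20 ranged from 0.11 (without control library 3) to 0.24 when a library was left out, and stayed positive in all 11 alternatives. The median of the other 13 genes ranged from 0.04 to 0.09 over all 11. Replicate numbers are shared between the groups, but the labels do not say that they mark pairs. Deviations of same-numbered libraries correlated at 0.07, 0.11 and 0.05 across genes, and every library correlated best with its own number. These values are small, and deviations from each group's own mean tie the correlations to each other. They cannot settle whether the numbers mark pairs. With the replicate block 4 genes were called in all and 0 of the 31, and the enzyme median was 0.19. The sign of the log2 fold change turned in at least 1 alternative for 16 of the 31 genes (6 of 18 enzymes, 10 of the other 13), in all 16 when a library was left out. It turned in 4 of 11 for Lss and 3 for Abcg1, and in Mvk, at 0.23, it turned without knockout library 1. The other 15 kept their sign in all 11. Of these turns, 1 came with another scaling (Lss). At 3 libraries a group, each printed interval gives the range of differences that fits that gene's libraries. It is not a limit of detection and does not say which changes would have been called.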
